A study of Homo sapiens with 5 samples.

Results

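The first step of YFP in this series is the YFP-low fraction set against the YFP-negative fraction of the same induced U2OS cell line. The comparison covers all 27992 gene names of the count table, of which 15099 reached at least 1 CPM (read count per 1000000 gene reads) in at least 1 of the 5 libraries and were analysed. U2OS is a human osteosarcoma cell line. The 4 sorted fractions, named YFP-negative, YFP-low and, with more signal, YFP-medium and YFP-high, came from U2OS cells carrying pTRIPZ-YFP-ER-E2F1, a doxycycline-inducible vector for E2F1 fused to YFP and an oestrogen receptor part, and were separated by flow cytometry. A parental U2OS library without the vector was the fifth group. According to the labels every group, parental cells included, had 500 ng/ml doxycycline for 48 h and then 90 nM OHT (4-hydroxytamoxifen) for a further 20 h in medium with 8% serum, so doxycycline and OHT did not differ between the groups. Each group had 1 library, so no difference has a replicate check and no test was possible. The fractions are bins of 1 culture by the fluorescence of the fusion itself, and the sources used here do not say whether the line grew from 1 clone.

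E2F1 is a transcription factor that binds DNA with a DP partner and drives genes for entry into S phase. RB1 and its relatives hold E2F factors in check until cyclin D and cyclin E kinases phosphorylate them, and several genes of this switch are themselves E2F targets. Strong E2F1 activity is also known to switch on genes of cell death, such as TP73 and APAF1, so the same factor is linked to both proliferation and apoptosis. In the fusion, the oestrogen receptor part keeps E2F1 out of the nucleus until OHT binds it.

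A gene was called higher or lower by size alone. Where 5 levels stand in a row, they run from parental cells through the sorted fractions in order of YFP: negative, low, medium, high. Levels are CPM after TMM scaling (a library scaling that sets the bulk of genes equal), and the log2 ratio was taken after adding 0.5 CPM to both libraries. A call needed a ratio past 2-fold and an exact Clopper-Pearson 95% interval of the ratio of counts that excluded 1. The fold values quoted below are ratios of CPM without the added 0.5 CPM, and their intervals cover counting error only, not differences between cultures or sorts and not PCR copies. Gene reads numbered from 70.7 M to 76.5 M per library, and 3 reads, the limit that a count of 0 allows, stand for 0.0361 CPM in YFP-negative or 0.0387 CPM in YFP-low.

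In YFP-low, 313 genes were higher than in YFP-negative (2.07% of those analysed) and 9 were lower (0.0596%). Cyclin E and cyclin D3, the ribonucleotide reductase subunit RRM2, the anti-apoptotic gene BCL2, the transporter ABCG2 and several multiciliated cell genes led by FOXJ1 were among the higher genes. E2F1 itself was 1.53-fold higher (1.49 to 1.58) and so stayed below the 2-fold size. Most genes moved little: the median log2 ratio over all genes was -0.01 and the quartiles were -0.17 and 0.19. At a log2 ratio of at least 1.5, 72 genes were higher and 0 lower. In a sorted bulk fraction, a larger share of cells that express a gene and more RNA per cell cannot be told apart.

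**Figure D1:**
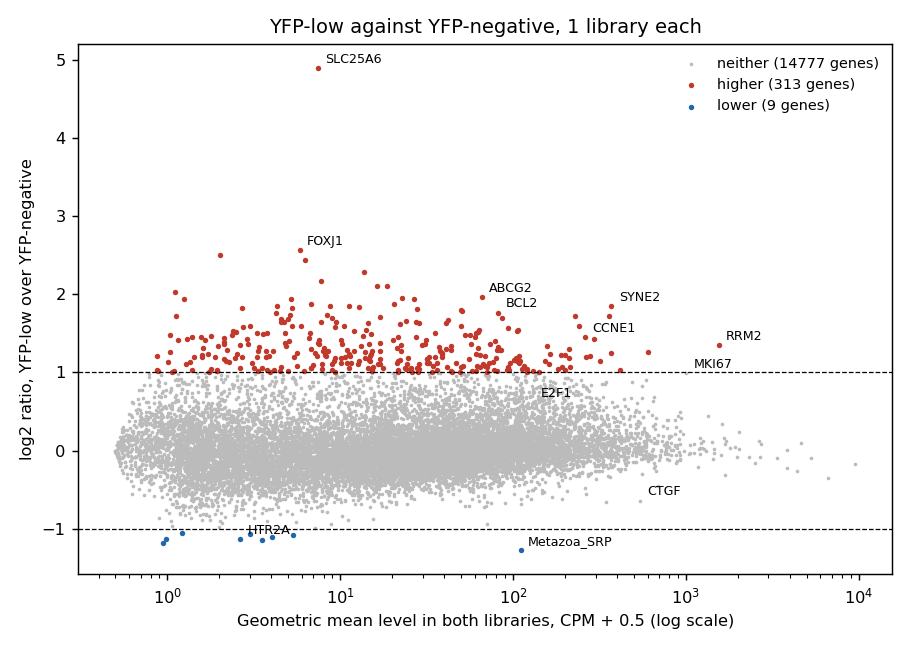
Log2 ratio of YFP-low over YFP-negative (vertical axis) against the geometric mean level of the 2 libraries in CPM + 0.5 (horizontal log axis) for the 15099 analysed genes, 1 library a group; dashed lines mark 2-fold. The 313 higher genes (red) lie at all levels up to RRM2, while the 9 lower genes (blue) lie below 10 CPM except Metazoa_SRP.

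The E2F1 row cannot give the size of the first step in vector RNA, since cells without the vector already had reads. It stood at 85.6 CPM without the vector and at 106, 163, 362 and 998 CPM in the 4 fractions by rising YFP. The order of the fractions by E2F1 level was the order of their YFP labels, and YFP-low lay nearest to YFP-negative. The count table has 1 row for E2F1, so reads of the vector and of the cell's own gene cannot be told apart. ESR1, which encodes oestrogen receptor alpha, was not analysed by the filter. It had 15 reads in parental cells and 3, 3, 16 and 25 reads in the fractions, the same number in YFP-negative and YFP-low.

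Promoter windows that hold a match of the motifs below are shown for E2F1 and for 4 higher genes of the multiciliated cell programme. E2F1 regulates its own promoter, and 3 of the 4 genes lie near each other on chromosome 5. The sequences are from RefSeq on GRCh38.p14, each 250 bases upstream of a transcription start, 5′ to 3′ on the gene's strand. Capitals mark exact matches of 4 E2F-type motifs of 8 letters, TTTGGCGC, TTTCGCGC, TTTCCCGC and TTTGCCGC, searched on both strands. IDAS is an older symbol of MCIDAS.
E2F1 window, chr20:33686386-33686635, minus strand: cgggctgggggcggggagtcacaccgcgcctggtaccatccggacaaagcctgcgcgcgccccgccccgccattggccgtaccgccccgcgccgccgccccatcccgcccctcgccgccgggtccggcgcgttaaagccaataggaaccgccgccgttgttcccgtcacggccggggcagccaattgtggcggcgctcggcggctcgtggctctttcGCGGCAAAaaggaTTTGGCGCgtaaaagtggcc
TP73 window, chr1:3652266-3652515, plus strand: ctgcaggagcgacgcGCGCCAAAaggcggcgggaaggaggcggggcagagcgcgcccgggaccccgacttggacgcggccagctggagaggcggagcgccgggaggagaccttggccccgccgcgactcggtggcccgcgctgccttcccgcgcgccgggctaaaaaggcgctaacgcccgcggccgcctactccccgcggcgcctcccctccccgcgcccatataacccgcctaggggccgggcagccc
IDAS window, chr5:55227316-55227565, minus strand: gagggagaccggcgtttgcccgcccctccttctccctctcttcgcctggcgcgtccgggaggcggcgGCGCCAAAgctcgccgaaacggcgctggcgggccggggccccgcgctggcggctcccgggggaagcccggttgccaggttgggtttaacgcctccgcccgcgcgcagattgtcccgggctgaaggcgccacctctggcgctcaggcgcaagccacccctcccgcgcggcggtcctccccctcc
CCNO window, chr5:55233609-55233858, minus strand: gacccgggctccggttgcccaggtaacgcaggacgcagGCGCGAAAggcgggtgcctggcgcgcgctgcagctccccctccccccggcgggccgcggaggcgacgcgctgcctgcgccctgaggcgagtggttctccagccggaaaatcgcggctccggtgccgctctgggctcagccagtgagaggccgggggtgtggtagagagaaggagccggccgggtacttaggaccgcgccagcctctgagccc
CDC20B window, chr5:55173178-55173427, minus strand: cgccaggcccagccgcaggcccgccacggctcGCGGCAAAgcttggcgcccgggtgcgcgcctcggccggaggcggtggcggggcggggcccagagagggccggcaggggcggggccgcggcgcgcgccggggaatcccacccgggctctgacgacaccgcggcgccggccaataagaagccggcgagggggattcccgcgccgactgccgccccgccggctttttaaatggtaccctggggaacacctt
In the E2F1 window the matches began 33 and 20 bases before the start, next to each other and without overlap. In the other windows 1 match each began 235 bases before the start of TP73, 183 before IDAS, 212 before CCNO and 218 before CDC20B. Such a match is a description of letters and not a site. Of all 35116 RefSeq windows of 300 bases (250 before and 50 after a start), 3.31% held at least 1 of the motifs. That share counts windows and not genes, and includes windows of genes not analysed here, so it is no background for the genes shown. The table used here has a window for 73.1% of the analysed genes and 69.6% of the higher genes, too few for a share over either, so both shares are void. The windows were chosen for display because they hold a match; the window of ZMYND10, another higher gene of the same list, holds none, and FOXJ1, RFX2, FAM111B and E2F8 have no window.

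The E2F and DP family had 1 higher gene of 10 at 2-fold, E2F8, beside 2.07% of all genes. By a 1.5-fold size, at which 7.15% of all genes were higher and 1.44% lower, 4 of the 10 were higher, namely E2F8, E2F2, E2F7 and E2F1. E2F8, an atypical E2F that represses E2F target genes, had 19.5, 27.2, 69.3, 107 and 79.9 CPM. Its ratio in YFP-low was 2.55-fold (2.43 to 2.68), and its highest level was in YFP-medium. That ratio was larger than the one of the E2F1 row, in which vector and own-gene reads cannot be told apart. E2F2, an activator like E2F1, had 36.8 CPM in YFP-negative and 61.6 in YFP-low. E2F3, E2F4 and E2F6 had log2 ratios of -0.12, -0.11 and 0.00.

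Among the pocket proteins, MuvB subunits and MYB factors, 2 of 12 were higher at 2-fold and 4 at 1.5-fold, with a list median log2 ratio of 0.44. Of all genes 2.07% and 7.15% were higher at these sizes. LIN54, the DNA-binding subunit of the MuvB core that the DREAM repressor and the MYB activator complexes share, had 55.3, 68.3, 156, 291 and 306 CPM. MYB, a proto-oncogene transcription factor, had 2.89, 3.51, 10.4, 58.5 and 147 CPM in the same order, a ratio of 2.95-fold (2.58 to 3.39) in YFP-low. LIN54 had nearly reached its final level in YFP-medium, whereas most of the MYB range lay above YFP-low. RB1, the brake on E2F1, had 104 CPM in YFP-negative and 183 in YFP-low, a 1.76-fold ratio (1.71 to 1.81). Its relatives RBL1 and RBL2 had log2 ratios of -0.05 and -0.17.

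Of the G1 and S cyclins with their kinases 3 of 10 were higher and 0 lower, with a list median of 0.32. Of all genes 2.07% were higher and 0.0596% lower. CCNE1 and CCNE2 encode the cyclin E proteins that activate CDK2 at the start of S phase. CCNE1 had 70.3, 157, 432, 657 and 721 CPM, and CCNE2 had 23.3, 54.1, 161, 291 and 307 CPM. CCND3, cyclin D3, had 56.9, 179, 485, 817 and 838 CPM. The ratios in YFP-low were 2.75-fold (2.69 to 2.80) for CCNE1, 2.98-fold (2.88 to 3.08) for CCNE2 and 2.71-fold (2.65 to 2.76) for CCND3. All 3 genes had a higher level in YFP-negative than in parental cells, and all 3 differed little between YFP-medium and YFP-high. The other D-type cyclins did not share this direction: CCND1 had 243 CPM in YFP-negative and 170 in YFP-low, CCND2 320 and 217, neither past 1.5-fold.

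The inhibitors of cyclin-dependent kinases had the highest median of the 44 lists, 0.72 over 6 genes. Of these 6 genes 3 were higher, beside 2.07% of all genes. CDKN2C (p18-INK4C) and CDKN2D (p19-INK4D) bind CDK4 and CDK6, and CDKN1B (p27) restrains cyclin E with CDK2. CDKN2C had 53.2, 62.0, 182, 379 and 495 CPM. CDKN1B had 58.0, 47.5, 127, 246 and 285 CPM, and CDKN2D 12.1, 16.2, 35.3, 51.1 and 59.0 CPM. For CDKN2C and CDKN1B the ratios were 2.94-fold (2.85 to 3.03) and 2.67-fold (2.58 to 2.77). CDKN1A (p21), a p53 target, had 300 CPM in YFP-negative and 379 in YFP-low, a log2 ratio of 0.34. SKP2, the ubiquitin ligase subunit that marks p27 for destruction, was also higher, with 118, 147, 309, 472 and 450 CPM, and was the only 1 of 25 cell-cycle ubiquitin ligase genes called.

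**Figure D2:**
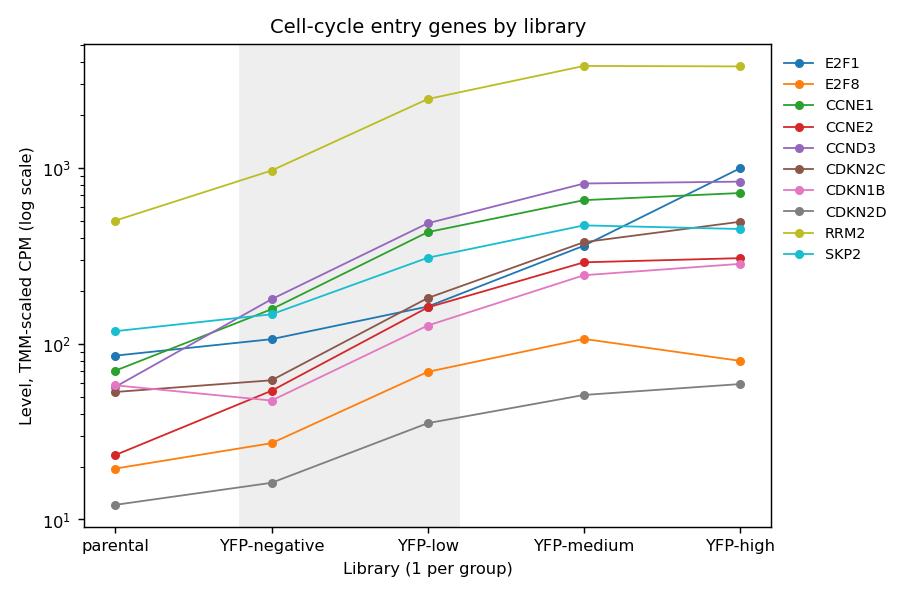
TMM-scaled CPM (log axis) of 10 cell-cycle entry genes in the 5 libraries, 1 point per library; grey marks YFP-negative and YFP-low. E2F8, the cyclins, the CDK inhibitors, RRM2 and SKP2 step up within the grey band by 2.10-fold to 2.98-fold, E2F1 by 1.53-fold.

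Replication genes are set beside the 2.07% of all genes called higher at 2-fold. None of 19 origin licensing genes was called at 2-fold, 1 was higher and 1 lower at 1.5-fold, and the list median of 0.04 turned negative with total-count or upper-quartile scaling. CDT1, which loads the MCM helicase, had 86.4 CPM in YFP-negative and 135 in YFP-low, while the helicase subunit MCM5 had 157 and 102 CPM and ORC1, of the origin recognition complex, 29.5 and 20.5 CPM. In the 43 genes of origin firing and the fork, 2 were higher: DBF4, the activator of the CDC7 kinase, with 64.9, 90.9, 184, 282 and 328 CPM from parental to YFP-high, and DONSON, a helicase assembly factor, with 46.5, 64.6, 141, 240 and 304 CPM. DSCC1, of the cohesion-linked clamp loader, lay just under the size with 83.6 CPM in YFP-negative and 166 in YFP-low. The fork list had a median of 0.19, which was -0.02 with parental cells as the baseline.

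Nucleotide supply had 2 higher genes of 17, beside 2.07% of all genes. The list median over all 17 was 0.00, and it turned negative with DESeq2, total-count or upper-quartile scaling or with TPM. RRM2, the regulated subunit of ribonucleotide reductase, had the largest gain in CPM of all genes, with levels of 503, 969, 2472, 3815 and 3791 CPM. DCK, which phosphorylates salvaged deoxynucleosides, had 68.6, 133, 329, 510 and 530 CPM. Their ratios were 2.55-fold (2.53 to 2.57) and 2.46-fold (2.41 to 2.52). Textbook E2F targets in the same list had other values: TYMS and TK1 had log2 ratios of 0.24 and -0.05.

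Mitotic genes had a shared but small difference. None of 58 passed 2-fold in either direction, 16 were higher and 0 lower at 1.5-fold, and the list median was 0.49. Of all genes 7.15% were higher and 1.44% lower at 1.5-fold. MKI67, the proliferation marker, had 860, 711, 1414, 1722 and 1537 CPM, and its log2 ratio of 0.99 lay just under the size. PRC1, a crosslinker of spindle midzone microtubules, had 212 CPM in YFP-negative and 378 in YFP-low. MKI67 was lower in YFP-negative than in parental cells, so part of the distance of YFP-low from YFP-negative lay below the parental level. Replication-dependent histones had 4 of 22 higher at 1.5-fold, at 0.787 to 3.21 CPM in YFP-low, and 0 at 2-fold.

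Chromatin repressors of the Polycomb group included 3 higher genes among 28 of the Polycomb and DNA methylation list (median 0.27). Of all genes 2.07% were higher. EZH2, the histone H3 lysine methyltransferase, had 27.3, 48.8, 106, 150 and 133 CPM from parental to YFP-high. CBX2, a reader of that mark, had 119, 102, 226, 480 and 540 CPM and CBX7, another reader, 38.9, 41.9, 89.6, 156 and 146 CPM. With parental cells as the baseline CBX2 had a log2 ratio of 0.92 and fell short of the size. EED and SUZ12, partners of EZH2, had log2 ratios of 0.69 and 0.58.

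The list of motile cilium and multiciliated cell genes had the most called members of the 44 lists, 7 of 35 higher and 0 lower. Of all genes 2.07% were higher, and the list median was only 0.16. By share the CDK inhibitors (3 of 6) and the G1 and S cyclins with their kinases (3 of 10) stood above it. The 44 lists were drawn up with earlier results of these data known, so such rankings are no independent finding. Multiciliated cells line the airway and build many motile cilia; IDAS starts their programme together with E2F4 or E2F5, and FOXJ1, RFX2, MYB, CCNO and TP73 act below or beside it. FOXJ1, the master regulator of motile cilia, had 0.0252 CPM (2 reads) in parental cells and 1.90, 13.7, 57.8 and 90.3 CPM in the fractions. Its ratio was 7.20-fold (6.08 to 8.56), and its log2 ratio of 2.56 with the added 0.5 CPM was exceeded in this comparison by SLC25A6 alone. In parental cells FOXJ1 was at or under the limit of 3 reads, and YFP-negative already held 158 reads.

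The other called members of that list reached moderate levels. IDAS had 4.27, 7.76, 20.4, 35.2 and 43.0 CPM. CCNO, needed for centriole amplification, had 6.30, 15.8, 49.9, 94.8 and 81.1 CPM, and the nearby CDC20B 0.492, 0.829, 2.92, 11.1 and 22.7 CPM. RFX2, a factor for ciliary genes, had 11.8, 18.7, 50.9, 79.7 and 70.1 CPM, and ZMYND10, a dynein arm assembly factor, 1.02, 1.86, 4.28, 7.11 and 7.25 CPM. CCNO was 3.16-fold higher (2.97 to 3.37), IDAS 2.62-fold (2.39 to 2.88) and CDC20B 3.52-fold (2.67 to 4.67). Structural genes were at other values: the dynein gene DNAI1 had 0.601 CPM in YFP-negative and 0.736 in YFP-low, and 28 of the 35 genes were not called.

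**Figure D3:**
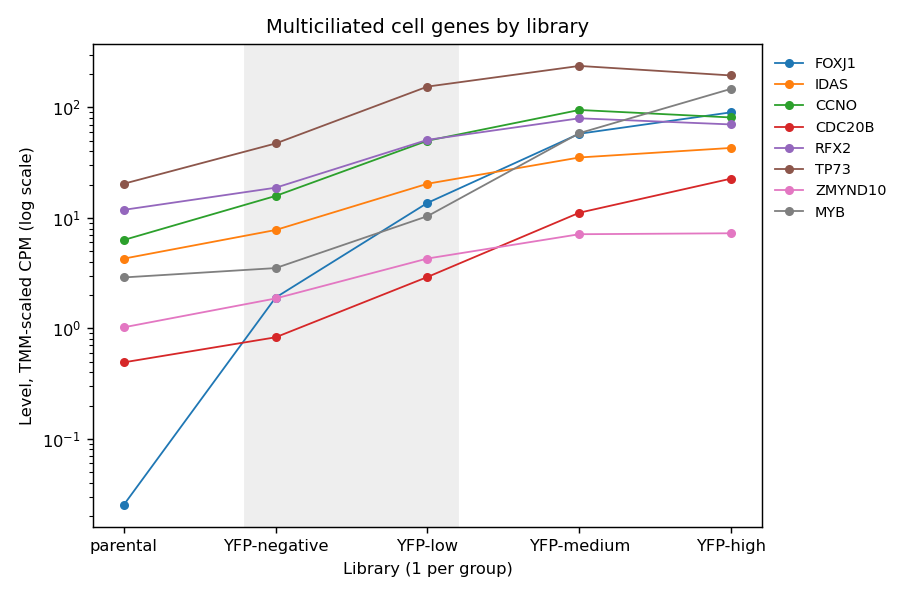
TMM-scaled CPM (log axis) of 8 genes linked to multiciliated cells in the 5 libraries, 1 point per library; grey marks YFP-negative and YFP-low. FOXJ1 starts from 2 reads in parental cells and reaches 13.7 CPM in YFP-low; TP73 stays the highest of the 8 in every library.

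Cell death genes showed a mixed first step. TP73, which encodes the p53 relative p73 and is a direct E2F1 target, had 20.4, 47.1, 154, 237 and 195 CPM, a ratio of 3.27-fold (3.16 to 3.39). BCL2, which blocks mitochondrial apoptosis, had 10.7, 44.1, 151, 261 and 252 CPM, a ratio of 3.42-fold (3.30 to 3.55). BCL2L11 (BIM), a BH3-only protein that neutralises BCL2, had 41.5, 28.2, 59.5, 133.7 and 211 CPM, 2.11-fold (2.01 to 2.22). BCL2 and TP73 had their highest level in YFP-medium, BCL2L11 in YFP-high. BCL2L11 was lower in YFP-negative than in parental cells, and against parental its log2 ratio of 0.52 did not pass the size.

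Further along the death pathway, MAP3K5 (ASK1), a kinase upstream of JNK and p38, had 9.24, 21.8, 47.9, 119 and 228 CPM. It was called higher, as the only member of its list of 19 stress kinase genes. APAF1, the core of the apoptosome, had 38.7 CPM in YFP-negative and 68.5 in YFP-low, past 1.5-fold only. Of 10 BH3-only genes 1 was called, and BBC3 (PUMA) had 17.7 and 15.7 CPM. In the list of BCL2 survival proteins with BAX and BAK, BCL2 was the only one of 12 called. With 2.07% of all genes higher, 1 call in each of these short lists says little about the list.

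Beyond the p53 family, calls in the p53 arm lay near the 2.07% of all genes that were higher. Among 33 p53 targets 1 was higher, PPM1D, a phosphatase that switches p53 off, with 99.9, 73.2, 162, 303 and 375 CPM. Its log2 ratio was 1.14 against YFP-negative and 0.70 against parental, the latter short of the size. The p53 target list had a median of -0.10, which was 0.31 with parental cells as the baseline. MDM2, a ubiquitin ligase gene of the p53 circuit, had 204 CPM in YFP-negative and 246 in YFP-low. DNA damage checkpoint and repair genes had 0 of 54 called at 2-fold, 3 higher and 2 lower at 1.5-fold, with FANCA, a Fanconi anaemia protein, at 87.3 and 148 CPM.

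Signalling genes called higher are set beside the 2.07% of all genes called higher. In NOTCH and WNT signalling 4 of 55 were higher, a larger share than that of all genes, with a list median of -0.03. HEY1, a NOTCH target and repressor, had 1.87, 14.4, 51.9, 194 and 510 CPM from parental to YFP-high, and its ratio in YFP-low was 3.60-fold (3.38 to 3.85). The WNT receptor FZD8 had 5.66 CPM in YFP-negative and 15.9 in YFP-low. WNT9A, a ligand, and NKD1, a WNT feedback inhibitor, were also called, at 2.06 and 12.8 CPM in YFP-low. WNT9A had 2.22 CPM in parental cells and 0.745 CPM in YFP-negative, so YFP-low lay below the parental level, and against parental NKD1 had a log2 ratio of 0.72 and was not called.

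Of 56 growth factor receptor, PI3K and FOXO genes 4 were higher, also a larger share than that of all genes. The list median of 0.04 turned negative with total-count or upper-quartile scaling. FGFR3, a fibroblast growth factor receptor, had 2.95, 4.87, 15.5, 59.7 and 179 CPM, 3.19-fold (2.85 to 3.58) at the first step. FGFR2 had 29.6, 24.6, 59.4, 137 and 206 CPM, INSR, the insulin receptor, 16.5, 18.8, 41.3, 69.2 and 81.2 CPM, and the ligand PDGFB 7.96, 3.87, 13.1, 35.9 and 73.9 CPM. FGFR2 and PDGFB were lower in YFP-negative than in parental cells; against parental their log2 ratios were 0.99 and 0.69.

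Of 36 YAP/TEAD and TGF-beta response genes 2 were higher at 2-fold (AMOTL1 and FST), beside 2.07% of all genes. At 1.5-fold 3 of the 36 were lower, beside 1.44% of all genes, and the median was -0.11. Of 26 BMP and osteoblast genes 1 was higher (BMP2), 2 were lower at 1.5-fold and the median was 0.01, negative with total-count or upper-quartile scaling or with TPM. FST (follistatin), which traps activins, had 36.0, 36.4, 105, 220 and 217 CPM, 2.90-fold (2.78 to 3.02), and BMP2 had 5.59, 11.9, 32.5, 90.6 and 154 CPM, 2.73-fold (2.53 to 2.94). AMOTL1, an angiomotin that holds YAP in the cytoplasm, had 158, 213, 474, 750 and 759 CPM. The YAP target CTGF had values in the other direction, 361, 672, 431, 227 and 91.9 CPM, past 1.5-fold but not 2-fold at this step. LIF, an IL-6 family cytokine, had 142, 97.0, 50.4, 24.3 and 8.22 CPM and had a log2 ratio of -0.94, just short of the lower size.

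Transporters had 3 of 35 higher among ABC and SLC16 genes, beside 2.07% of all genes. ABCG2, a drug efflux pump, had 4.49, 32.9, 130, 298 and 438 CPM, 3.95-fold higher (3.79 to 4.12) at this step. SLC16A1 (MCT1), the lactate and pyruvate carrier, had 176, 390, 938, 1454 and 1297 CPM. SLC16A6, a relative of it, had 0.139, 4.09, 14.8, 68.5 and 171 CPM, 3.62-fold (3.20 to 4.10). ABCG2 and SLC16A6 were low in parental cells and well above it in YFP-negative.

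Several large gene groups had no called gene, beside 2.07% higher and 0.0596% lower of all genes. A count of 0 in lists of these sizes lies near those shares. None of 74 cytosolic ribosomal protein genes was called at 2-fold or 1.5-fold (median -0.05), none of 31 cholesterol and fatty acid synthesis genes (-0.14), none of 51 ATF4 response and chaperone genes (0.03, negative with total-count or upper-quartile scaling) and none of 24 NF-kB genes (-0.05, but 0.73 with parental cells as the baseline). Of 47 MYC network and ribosome biogenesis genes 0 were called at 2-fold and MXD3, an antagonist of MYC, was the single gene past 1.5-fold, with 22.5 and 40.5 CPM. That list had a median of -0.16, which was 0.13 against parental. Below 0 lay 61 of the 74 ribosomal protein genes, 38 of the 47 MYC network and ribosome biogenesis genes and 23 of the 31 lipid synthesis genes, by small amounts, beside an all-gene median of -0.01. MYC itself had 146 CPM in YFP-negative and 102 in YFP-low. Housekeeping genes had a median of 0.07, which turned to -0.02 with total-count scaling.

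**Figure D4:**
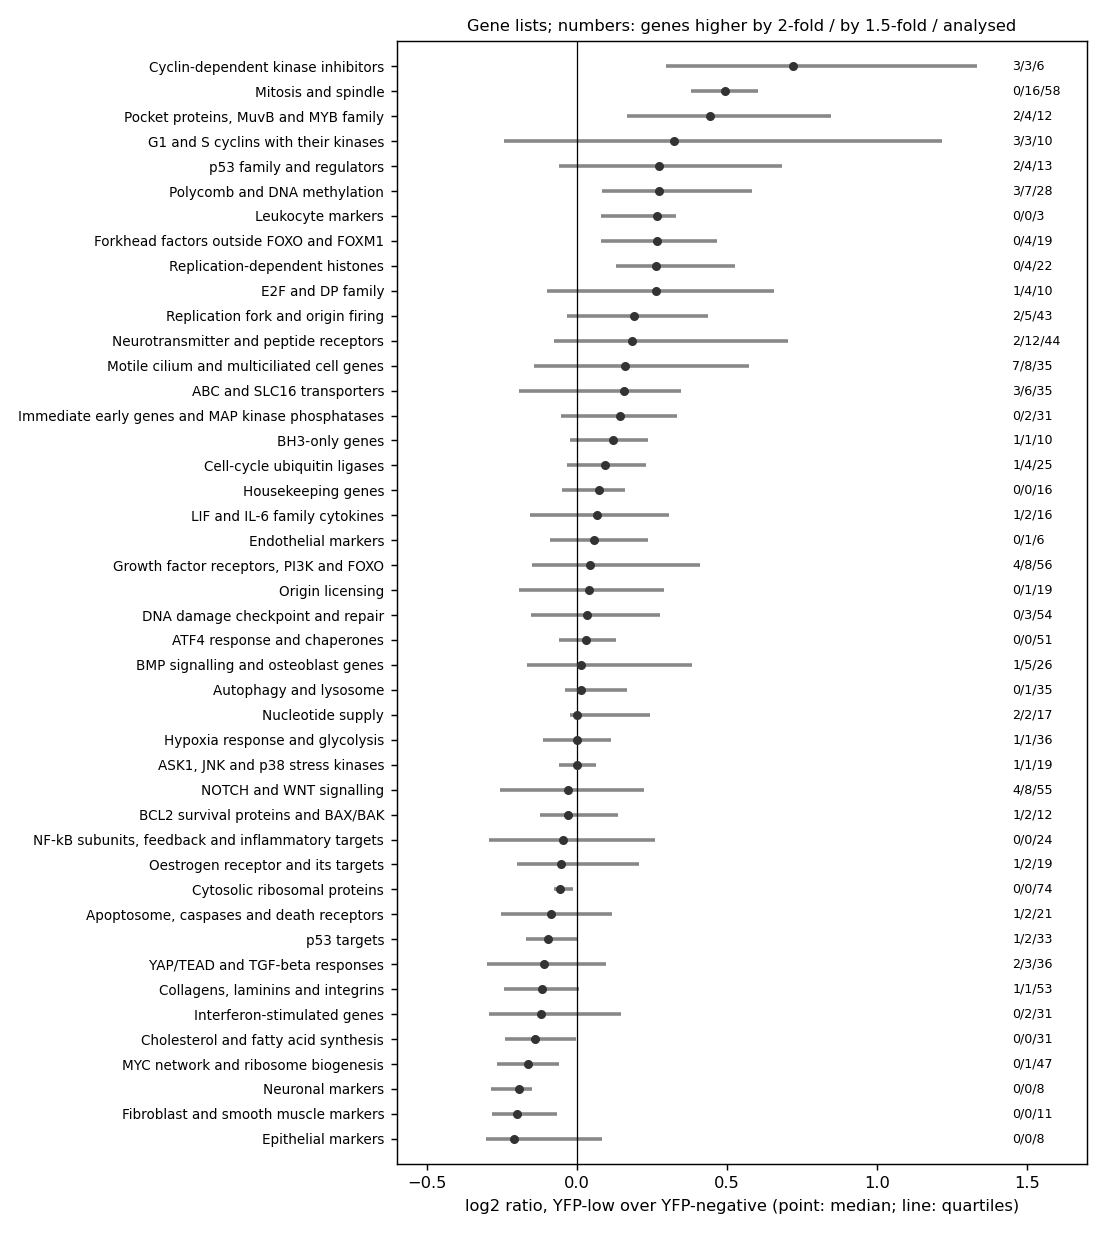
Median (point) and quartile range (line) of the log2 ratio of YFP-low over YFP-negative for each of the 44 gene lists; the numbers give genes higher by 2-fold, by 1.5-fold, and analysed. CDK inhibitors (0.72), mitosis (0.49) and pocket proteins (0.44) have the highest medians, and most other lists lie within 0.3 of 0.

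The lists that follow held at most 1 called gene each at 2-fold, beside 2.07% higher of all genes. Because every group had OHT, a ligand of the oestrogen receptor, the receptor's own targets were listed too: 1 of 19 was higher, MYB, and GREB1, a classic oestrogen-induced gene, had 7.51 CPM in YFP-negative against 6.03 CPM in YFP-low. Among 31 interferon-stimulated genes 0 were higher and 1, BST2, was lower, while the protease gene USP18 had 2.92 and 5.77 CPM. That list leaves out CMPK2, a nucleotide kinase gene also known as interferon-inducible, which was called higher. CMPK2 was 4.53-fold higher (4.15 to 4.95), with levels of 0.794, 7.40, 33.5, 103 and 156 CPM, so the list count does not cover every such gene. Of 53 collagen, laminin and integrin genes 1 was higher, the laminin receptor subunit ITGB4, with 21.1, 14.3, 32.6, 105 and 226 CPM. Of 36 hypoxia and glycolysis genes 1 was higher, the enolase ENO2, with 106, 98.8, 200, 358 and 370 CPM. Against parental cells ITGB4 and ENO2 had log2 ratios of 0.62 and 0.91 and fell short of the size. HK2, a hexokinase of the same glycolysis list, had 86.6 CPM in YFP-negative against 52.2 CPM in YFP-low. Of 31 immediate early genes and MAP kinase phosphatases 0 were called at 2-fold and 2 each way at 1.5-fold, with FOSB, an AP-1 subunit, at 14.6 and 7.61 CPM and the nuclear receptor NR4A2 at 7.55 and 14.2 CPM. Autophagy and lysosome genes had 0 of 35 called at 2-fold. The list of forkhead factors outside FOXO and FOXM1 had 0 of 19 called at 2-fold. It leaves out FOXJ1, a forkhead gene that was called higher and is counted with the motile cilium genes.

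Markers of other cells had no called gene at the 2-fold size. With 2.07% of all genes higher, a count of 0 in such short lists says little. Of 8 epithelial, 3 leukocyte, 6 endothelial, 8 neuronal and 11 fibroblast and smooth muscle markers analysed, 0 were called, and 1 (ERG, endothelial) passed 1.5-fold. Summed levels in YFP-negative and YFP-low were 584 and 544 CPM for epithelial, 25.3 and 26.04 CPM for leukocyte, 17.1 and 22.2 CPM for endothelial, 202 and 175 CPM for neuronal and 1844 and 1886 CPM for fibroblast markers. Defining markers KRT19, GRHL2, CLDN4, CD3E, TYROBP and EMCN had no read in either library. Of the osteoblast genes that fit an osteosarcoma line, RUNX2 had 32.6 and 32.8 CPM and COL1A1, collagen I, 1257 and 1089 CPM, while TWIST1 and IBSP had no read.

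The 9 lower genes were mostly scarce. Metazoa_SRP, the row for the RNA of the signal recognition particle family, was the exception, with 487, 172, 70.8, 49.96 and 29.9 CPM, 2.43-fold lower (2.35 to 2.50). HTR2A, a serotonin receptor gene, had 10.1, 3.40, 1.28, 0.532 and 0.0942 CPM and was 2.66-fold lower (2.11 to 3.38). For these 2 genes each library was below the one before it in the order from parental to YFP-high. DNM3OS, a non-coding RNA gene, had 5.46 and 2.26 CPM, and BST2, an interferon-stimulated membrane protein, 3.86 and 1.57 CPM. ASAH2 and AJ420595 rested on 13 and 10 reads in YFP-low, and C6orf48 and WDR46 lie in the MHC.

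Some of the highest ratios had no counterpart in the later fractions. SLC25A6, which encodes a mitochondrial carrier and is pseudoautosomal, had 40.1 CPM in YFP-low and between 0.330 and 1.08 CPM in the other 4 libraries. In the pseudoautosomal region, the MHC and 17q21, where reference assemblies hold more than 1 copy of a sequence, 6 of the 313 higher and 3 of the 9 lower genes lay among 64 analysed. Without these regions the counts were 307 higher and 6 lower. How the authors' aligner placed such reads was not tested.

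The higher genes were then set against comparisons that share no library with this one. In YFP-medium against parental, where 12.5% of all genes were higher, 299 of the 313 were higher (95.5%) and 0 lower, beside 8.17% lower of all genes. These were 15.9% of the 1884 genes higher there. In YFP-high against parental, where 21.3% of genes were higher, 301 were higher (96.2%) and 1, ASMTL, was lower (14.6% of all genes). They were 9.36% of the 3216. The median log2 ratio of the 313 was 2.57 and 3.00 in these comparisons, beside 0.00 and -0.04 for all genes. The 14 genes not higher in YFP-medium included SLC25A6, ABHD16A, NSFP1 and GNL1 of the repeated regions and also EYA2, APOE and ACAN.

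**Figure D5:**
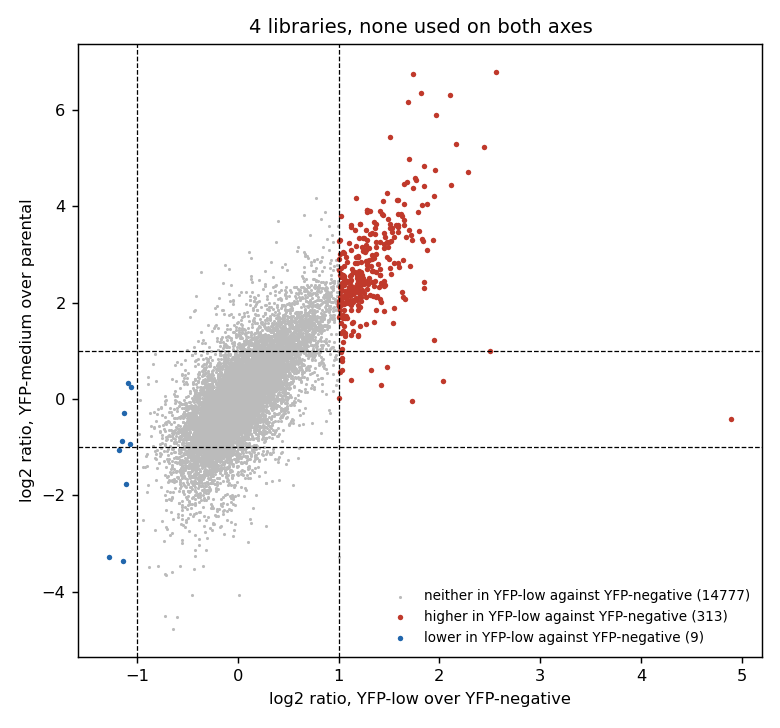
Log2 ratio of YFP-medium over parental (vertical) against log2 ratio of YFP-low over YFP-negative (horizontal) for 15099 genes, with dashed lines at 2-fold; the 4 libraries are each used once. Of the 313 red points 299 lie above the upper line and pass the interval, and SLC25A6 is the far right point below 0.

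The step from YFP-medium to YFP-high, also free of the first 2 libraries, held fewer of them. There 47 of the 313 were higher (15.02%, beside 9.17% of all genes, and 3.39% of the 1385 higher there) and 2 were lower (1.31% of all genes). Their median log2 ratio was 0.38 beside -0.07 for all genes. Among the 47 were FGFR3, which went from 59.7 to 179 CPM, HEY1 (194 to 510 CPM), MYB (58.5 to 147 CPM) and the lymphoid transcription factor IKZF1 (56.3 to 204 CPM). Cyclins E and D3, RRM2, BCL2, TP73 and EZH2 were not among them.

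The median level of the 313 genes was 7.01, 9.27, 23.7, 51.1 and 73.1 CPM. Their summed share of gene reads was 1.06% in YFP-negative and 2.46% in YFP-low. The rule used both libraries, so these 2 values describe the choice of genes and are no finding. The size of the fold was modest for most: 215 genes lay between 2-fold and 3-fold and 98 at 3-fold or more, with a median of 2.56-fold. Within 0.05 of the log2 size on the inside lay 48 genes, DBF4 and FAM111A among them, and within 0.05 outside it lay 41, MKI67 and DSCC1 among them. By level in YFP-negative, 3.36% of 1310 genes under 1 CPM were higher, 2.94% of 4048 from 1 to 10 CPM, 1.69% of 7446 from 10 to 100 CPM and 24 genes of 2295 above that.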

How the data were processed

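Total RNA of 5 U2OS libraries was sequenced. Per the submitters' processing notes, the tools were CASAVA 1.8.2, bcl2fastq, Trimmomatic 0.36, HISAT2 2.0.3 and HTSeq 0.6.0 on hg19. The authors deposited a table of raw read counts per gene, used here for all main values, and a table of TPM (transcripts per 1000000), used as an alternative. No annotation or strand setting is stated in the sources used here; without them, reads of an antisense or overlapping gene cannot be separated. Left out were 6 rows without a gene; the row named unknown held at most 0.000730% of counted reads.

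Genes with at least 1 CPM in 1 of 5 libraries were kept and scaled by TMM (edgeR 4.0.16, R 4.3.3, YFP-negative as reference). The size rule, intervals (scipy 1.17.1) and 44 gene lists are described with the results, and the calculation was tested on simulated data. Members and lists were chosen with earlier results of these data known. Named genes were E2F1 and ESR1, the 30 higher and all lower genes whose interval lay farthest from no change, the 10 largest gains and losses in CPM, and up to 8 members of each list with at least 5 CPM in either library. Other names, such as CDC20B, ZMYND10, WNT9A, DNAI1, TYMS, TK1, the markers without reads, IKZF1, EYA2, APOE, ACAN and FAM111A, and the families named by prefix, were picked with their values in view. Some genes are not reported here. Alternatives were other scalings (DESeq2 1.42.0 size factors, total counts, upper quartile), filters, a pseudocount of 2 CPM, deposited TPM, a 1.5-fold size, intervals past 2-fold, parental cells as baseline, and regions left out.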

Additional observations from a re-analysis of the deposited data

How the results depend on the processing

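No paired analysis was possible because each group has 1 library, and for the same reason no replicate could be left out. The count of 313 higher genes ranged from 241 to 315 with other scalings, filters, deposited TPM, intervals past 2-fold, regions left out and a correction for transcript GC content, chosen after seeing the data (295 higher and 7 lower over 13759 genes). It was 206 with a pseudocount of 2 CPM, 1080 at 1.5-fold and 900 with parental cells as the baseline, under which 273 of the 313 remained higher. The 9 lower genes became 16 with total counts, 5 with a minimum of 5 CPM, 1 with the pseudocount of 2 CPM, 22 with TPM, 218 at 1.5-fold and 665 against parental. C6orf48 turned from lower to a log2 ratio of 0.25 against parental. At 1.5-fold the genes shared with YFP-medium against parental, YFP-high against parental and YFP-high against YFP-medium numbered 1015, 1009 and 366, and with the pseudocount of 2 CPM the last was 24. With total counts the all-gene median shifted by -0.09 (log2). The cause of these differences was not tested, beyond the smaller ratios that a larger pseudocount gives to scarce genes. Depth limits genes under about 1 CPM, which rest on few reads.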

Other observations

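Genes of neurons and of ion channels outside the lists above were also among the higher genes. Of 20 voltage-gated calcium channel genes 3 were higher, CACNA1B, CACNA1C and CACNA1D. CACNA1C, of the L-type channel, had 7.51, 8.17, 18.2, 39.1 and 72.6 CPM. Of 60 potassium channel genes 3 were higher, KCNG3, KCNK2 and KCNK10, and KCNG3, a modifier subunit, had 2.70, 11.1, 44.4, 85.5 and 93.7 CPM. The glutamate receptor genes GRM2 and GRM8 had 2.14 and 3.46 CPM in YFP-negative and 9.65 and 10.7 CPM in YFP-low, 2 of 44 receptor genes, while HTR2A of the same list was lower. Of the 8 neuronal markers themselves 0 had a log2 ratio above 0, and their median was -0.19. Of 463 zinc finger genes 2 were higher and of 32 HOX genes 0, beside 2.07% of all genes.

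Small nucleolar RNAs, which guide the modification of ribosomal RNA, had values to the other side. Of 43 analysed 0 were called at 2-fold, 12 were lower and 0 higher at 1.5-fold, and the median log2 ratio was -0.39. Of all genes 1.44% were lower and 7.15% higher at 1.5-fold. SNORA33 had 5.56, 9.94, 6.05, 4.82 and 2.65 CPM. The largest loss in CPM among protein genes with a plain symbol was EEF1A1, a translation elongation factor, from 5477 CPM in YFP-negative to 5111 CPM in YFP-low, a log2 ratio of -0.10 and not a call.

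Neighbouring genes were at times called together. In the RefSeq gene order of GRCh38.p14, 13838 analysed genes and 290 of the higher genes could be placed, and 14 adjacent pairs were both higher. No background for such pairs was computed, and CSF2RA with SLC25A6 and SLC25A6 with ASMTL, 2 of the 14, lie in the pseudoautosomal region. The others included WRAP73 with TP73, IDAS with CCNO, HMX3 with HMX2, FAM111B with FAM111A, DCK with SLC4A4, E2F8 with NAV2 and CBX7 with PDGFB. WRAP73, a centriolar satellite protein gene, had 19.5, 36.7, 108, 206 and 181 CPM from parental to YFP-high, beside 20.4, 47.1, 154, 237 and 195 CPM for TP73. FAM111B, a protease gene, had 107, 197, 649, 1141 and 1422 CPM, and FAM111A 128, 139, 284, 383 and 335 CPM. With strand use in the counting not given, reads of overlapping neighbours cannot be told apart.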
